A study of Mus musculus with 12 samples.

Results

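The proteasome genes measured on these arrays were described over mid-2-cell mouse embryos in which translation of Oct4 or of Ccna2 was blocked, and over the uninjected embryos of each experiment. Members were the genes whose symbol begins with Psma, Psmb, Psmc, Psmd, Psme, Psmf or Psmg followed by a number. Of 18163 genes with a single symbol, 47 matched, with 100 probe sets. Psmc3ip and Psme3ip1 matched by name only and are not proteasome genes, which leaves 45 genes with 97 probe sets. Where a gene had several probe sets, the one with the highest mean over all 12 arrays was taken. By subcomplex these were 7 alpha subunits and 6 constitutive beta subunits of the 20S core, 1 testis form and 4 immune or thymus forms of core subunits, 16 subunits of the 19S regulator, 3 activators, 1 inhibitor and 7 assembly chaperones. Psmb5, Psmc5 and Psme2 were not analysed here.

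The 26S proteasome destroys proteins that carry ubiquitin chains. Its 20S core is a barrel of alpha rings at the ends, which gate the entrance, and beta rings inside, which hold the proteolytic sites of Psmb5, Psmb6 and Psmb7. The 19S regulator sits on the barrel: a ring of Psmc ATPases unfolds the substrate, Psmd subunits of the base bind ubiquitin, and the lid removes the ubiquitin chain through Psmd14. In early mouse embryos the proteasome takes part in the clearance of maternal proteins at the passage from maternal to embryonic control. Its subunits are needed in fixed proportions, and many of their genes are known to be transcribed together.

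There were 4 groups of 3 arrays. Oct4-MO embryos had received at the 1-cell stage a morpholino oligonucleotide (MO) against the translation start of Oct4, and Ccna2-MO embryos one against Ccna2, the gene of cyclin A2; the labels give 0.6 mM for both, whereas the study's methods state a higher dose for Ccna2-MO. Each had its own uninjected controls, taken from the same collection of embryos and cultured in parallel. All embryos came from superovulated F1 (C57BL6xDBA/2) females aged 3 to 5 weeks mated with wild type males, and were collected 43 h after hCG. No nonspecific MO was put on the arrays, so injection itself cannot be told apart from the MO. The study took the Ccna2-MO arrays as its control for injection, for the presence of an MO and for transcripts bound by one. An MO blocks translation, so the level of its transcript is no check of the knockdown. For each array 20 embryos were pooled, and RNA corresponding to 10 of them went through 2 rounds of amplification. Values are the authors' normalized intensities, not in log units, and differences are of log2(value + 16), which understates the changes of dim probe sets. An array measures a pool, so fewer transcripts per embryo and fewer embryos that hold them cannot be told apart.

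Pou5f1, the transcript of Oct4, had a level of 2193 ± 331 after Oct4-MO injection and 1923 ± 166 without it, and the level of Ccna2 was 3595 ± 695 after Ccna2-MO injection and 3872 ± 394 without it (SD, n = 3 each). Medians over the probe sets of single arrays were 22.7 to 25.5. Over the 22469 probe sets with the highest mean log2 values, 9 of 12 arrays correlated most with an array of their own group. Oct4-MO 2, Ccna2-MO 1 and Ccna2-MO 3 did not. All 12 measured markers of oocytes and early embryos had means of at least 16 in every group, and their summed level was 18249 to 23838. On the Oct4-MO arrays 4 of these 12 lay above all controls and 1 under them, where 9.21% and 9.57% of all genes did. On the Ccna2-MO arrays 5 of 12 lay above and 2 under, where 9.89% and 9.29% of all genes did. Zar1, a maternal gene, was 303 ± 5.92 in Oct4-MO embryos against 73.6 ± 20.2 (log2 difference 1.85, adjusted p = 0.123 by limma). In Ccna2-MO embryos it rose from 71.5 ± 34.5 to 392.5 ± 180.3 (2.19, adjusted p = 0.0328 by limma). Gdf9 and Tcl1 were also above all controls in both. Dppa3 was under all controls in both, with log2 differences of -0.21 and -0.13. Zp3 was under them in Ccna2-MO embryos (-0.58). Summed levels of 10 measured cumulus cell markers, of which 6 or 7 had means under 16, were 386 to 609 in Oct4-MO embryos against 210 to 298 in their controls and 304 to 419 in Ccna2-MO embryos against 175 to 318. Most of that difference lay in Cyp11a1, at 258, 292 and 442 on the Oct4-MO arrays against 108, 178 and 106 and 254, 209.9 and 184 on the Ccna2-MO arrays against 179, 12.5 and 55, and in Amh at 67.5 on Oct4-MO 3 alone, while Has2 and Tnfaip6 had lower means in Oct4-MO embryos. Star had means of 59.8 against 45.9 and 93.3 against 64.7. Foxl2 was 71.55 on control 2 of the Ccna2-MO experiment. On the Oct4-MO arrays 2 of these 10 lay above all controls and 2 under them, and on the Ccna2-MO arrays 1 and 1. Summed levels of 7 sperm markers, 3 or 4 of them under 16, were 337 to 379.9 against 254 to 304 and 244 to 315 against 211 to 258. Prm1 had the highest values of these, with means of 233 against 160 and 165 against 131. Prm2 was under all controls in Oct4-MO embryos (mean 18.5 against 33.4) and above them in Ccna2-MO embryos (27.8 against 6.64). The signal ratio of 3' to 5' Gapdh control probe sets, a measure of RNA length, was 2.80 to 5.94 in Oct4-MO embryos, 2.97 to 3.84 in their controls, 2.36 to 3.59 in Ccna2-MO embryos and 3.06 to 3.33 in theirs. The same ratio of beta-actin was 0.308 to 0.824, 0.448 to 0.803, 0.442 to 0.578 and 0.544 to 0.733, and Oct4-MO 3 had the highest ratio of Gapdh and the lowest of beta-actin. The part of these differences in the results below was not tested.

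Most proteasome genes had a lower mean after injection of either MO, and 1 gene passed the test. The median log2 difference over the 45 genes was -0.28 in Oct4-MO embryos and -0.24 in Ccna2-MO embryos, each against its own controls, while the medians over all 18163 genes were 0.01 and 0.03. The difference was below 0 for 35 of 45 proteasome genes in Oct4-MO embryos and for 34 of 45 in Ccna2-MO embryos, against 48.5% and 46.8% of all genes. Of the 45, 29 lay below 0 in both comparisons, 5 above 0 in both, and 11 had opposite signs; the comparisons do not share control arrays. By limma with Benjamini-Hochberg adjustment at 0.05, 0 of 45 passed in Oct4-MO embryos, where 0.0936% of all genes did. In Ccna2-MO embryos 1 of 45 passed, Psma6, which was lower, where 0.93% of all genes did.

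**Figure D1:**
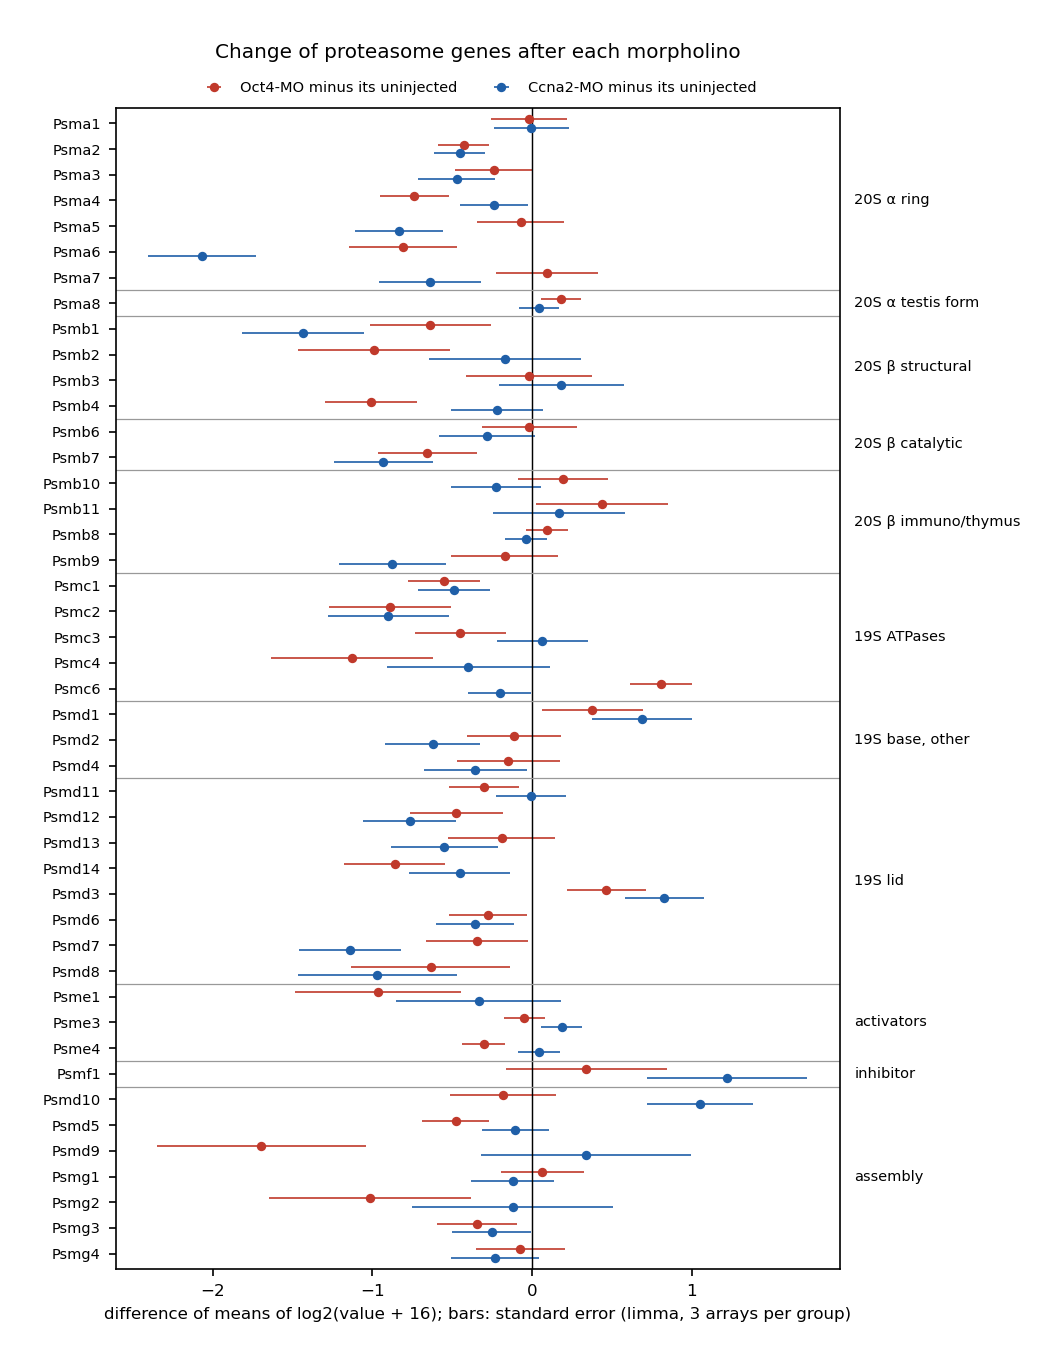
Log2 differences of each proteasome gene (horizontal axis, log2(value + 16) scale) in Oct4-MO and Ccna2-MO embryos against their own uninjected embryos, ordered by subcomplex (vertical axis), with points at the estimates and bars of 1 standard error from limma. Most points of both comparisons lie left of 0, with medians of -0.28 and -0.24, and Psma6 in Ccna2-MO embryos is farthest left at -2.06.

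At an unadjusted p under 0.05, 11 of 45 proteasome genes were lower in Oct4-MO embryos, where 5.96% of all genes were lower, and 1 of 45, Psmc6, was higher, where 4.66% were. In Ccna2-MO embryos 9 of 45 were lower, where 8.5% of all genes were, and 4 of 45 were higher, where 8.22% were. All 3 injected arrays lay under all 3 controls for 10 of 45 genes in the Oct4-MO experiment, where 9.57% of all genes did so, and above them for 1 of 45, where 9.21% did. The same held for 12 of 45 lower in the Ccna2-MO experiment, where 9.29% of all genes did so, and for 3 of 45 higher, where 9.89% did. Among the 11417 genes of the brighter part of the array, which holds 40 of the 45 proteasome genes, 8.64% were lower in Oct4-MO embryos and 11.9% in Ccna2-MO embryos at an unadjusted p under 0.05. The shares that were higher there were 5.45% and 10.7%. All 3 injected arrays lay under all 3 controls for 12.5% of these brighter genes in the Oct4-MO experiment and 12.2% in the Ccna2-MO experiment. They lay above them for 10.3% and 11.5%. Psma2, Psma6 and Psmc2 were among those lower at an unadjusted p under 0.05 in both.

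Single arrays differed in how far the set as a whole lay from its mean. For each gene the deviation of an array from the gene's mean over 12 arrays was taken, and the median over the 45 genes. It was -0.07, -0.39 and -0.29 on the log2 scale on the Oct4-MO arrays 1, 2 and 3 and 0.19, -0.03 and 0.08 on their controls. It was -0.02, -0.18 and 0.10 on the Ccna2-MO arrays and 0.24, 0.20 and 0.22 on their controls. Every injected array thus lay under the control array of its own number and under every control of its experiment, Ccna2-MO 3 being the highest injected array. All genes together had array medians of -0.05 to 0.02.

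**Figure D2:**
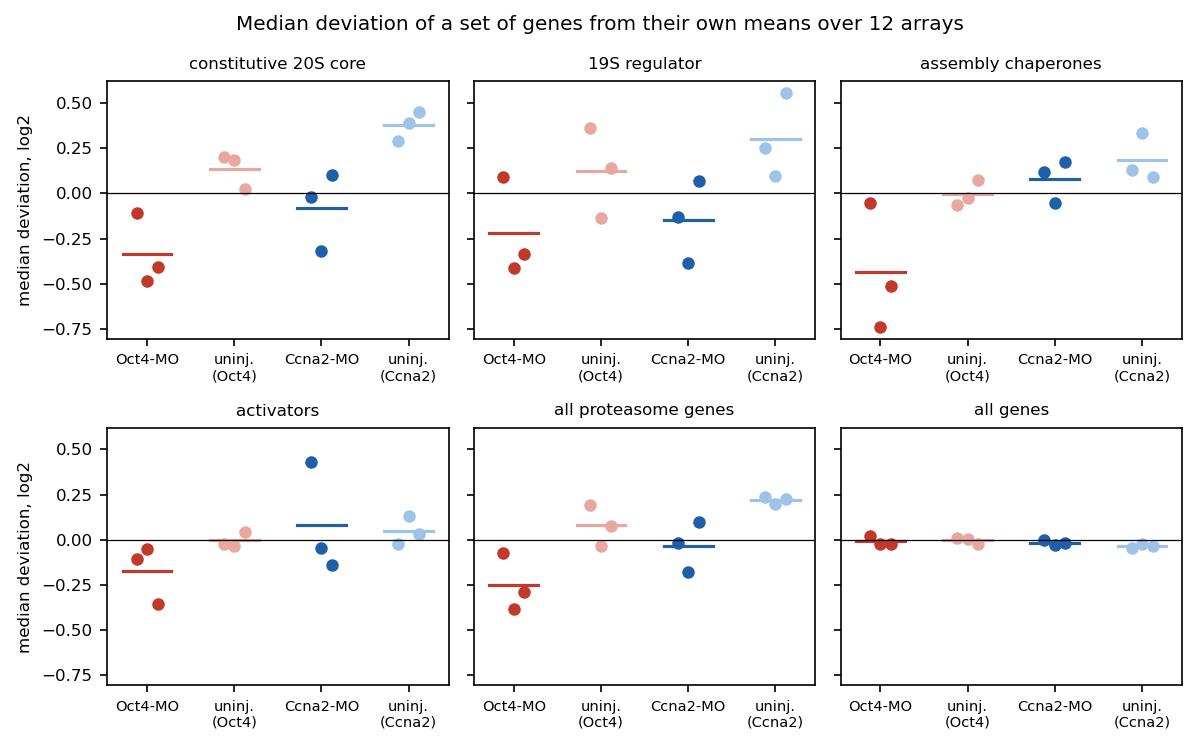
Median log2 deviation from each gene's mean (vertical axis) on each of the 12 arrays (points, 3 per group along the horizontal axis) for the constitutive 20S core, the 19S regulator, the assembly chaperones, the activators, all proteasome genes and all genes, with lines at the group means. The controls of the Ccna2-MO experiment are the highest arrays for all proteasome genes at 0.20 to 0.24, and Oct4-MO array 2 is the lowest at -0.39.

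Most proteasome genes also had a higher mean in the uninjected embryos of the Ccna2-MO experiment than in those of the Oct4-MO experiment, and none passed the test. The median log2 difference of the 45 genes between these control groups was 0.18, with 32 of 45 above 0, against -0.02 for all genes. By limma 0 of 45 passed after adjustment, where 0.116% of all genes did. At an unadjusted p under 0.05 there were 4 of 45, Psma6, Psmb8, Psmc3 and Psmd9, where 12% of all genes lay past it. Experiment and group cannot be told apart here. For Psma6, whose control level was 1418 ± 253 in the Ccna2-MO experiment and 827 ± 14.1 in the Oct4-MO experiment (SD, n = 3 each), the difference in Ccna2-MO embryos was -1.69 with all 6 uninjected arrays as controls (adjusted p = 0.0334 by limma).

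Many proteasome genes are known targets of Nfe2l1, which binds antioxidant response elements, and of the CCAAT-binding factor NF-Y, so promoters were searched for these motifs on both strands in the windows RefSeq gives on GRCm38.p6, 250 bases before to 50 after a start, with each motif counted on its own whether or not it overlapped another. Of the 45 genes 37 had a window, 39 windows in all. TGACNNNGC was in 5 of 39 (12.8%, against 12.4% of 32851 windows of all genes), TGAGNNNGC in 13 (33.3% against 17.6%) and CCAAT in 14 (35.9% against 37.4%). A match is a stretch of letters and does not show binding. The sites below, with the motif in capitals, were chosen after the values were seen, as examples of each motif in genes whose results are described further on. Further matches, among them those of Psmb9, Psmb11, Psmd1, Psmd14, Psme3 and Psme4, are not printed. Psma6 carries both a CCAAT box and an antioxidant response element match, the latter read from the minus strand. The first is at chr12:55384185-55384205, 29 bases upstream of a start, and the second at chr12:55384044-55384068. Sites of Psmc2 (chr5:21785239-21785259), Psmd10 (chrX:140956723-140956743), Psma4 (chr9:54950724-54950748), Psmb6 (chr11:70525340-70525364) and Psmd9 (chr5:123228151-123228175) are printed in the orientation in which the motif reads, all on the plus strand. Psmc6 carries both kinds of antioxidant response element match, at chr14:45329589-45329613 on the minus strand and chr14:45329575-45329599 on the plus strand.
Psma6 CCAAT: actaggtgCCAATggaattcc
Psma6 TGAGNNNGC: agagctgaTGAGGTTGCctgacctg
Psmc2 CCAAT: gcctcgcgCCAATgcgcgcgg
Psmd10 CCAAT: tccggcgaCCAATcaaagtac
Psma4 TGAGNNNGC: gggcagacTGAGCCCGCcccagcac
Psmb6 TGACNNNGC: aaagagagTGACGGAGCgctttacg
Psmd9 TGACNNNGC: ctagccggTGACCCCGCccacttcc
Psmc6 TGACNNNGC: gcaatgccTGACTTAGCtactggct
Psmc6 TGAGNNNGC: cttaatatTGAGCCAGCcagtagct

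In the 20S core, 12 of 13 constitutive genes lay below 0 in each comparison, with a median log2 difference of -0.43 in Oct4-MO embryos and -0.45 in Ccna2-MO embryos. All 7 alpha subunits lay below 0 in Ccna2-MO embryos (median -0.47) and 6 of 7 in Oct4-MO embryos (median -0.24). Psma6, an alpha subunit, was 297, 193 and 579 on the Ccna2-MO arrays and 1149.9, 1450.2 and 1654 on their controls. The groups did not overlap, with Ccna2-MO 3 the highest of the injected arrays. It fell by 2.06 on the log2 scale (SE 0.34, adjusted p = 0.0263 by limma, and 0.044 with the pair of pools as a block). On the Oct4-MO arrays it was 673, 339 and 438 and on their controls 824, 815 and 843, again with no overlap. That difference was -0.81 (SE 0.34) and did not pass (adjusted p = 0.486 by limma). The probe set of Psma6 used here is one of those whose probes may match other sequences. A second probe set gave 257, 208 and 475 on the Ccna2-MO arrays and 873, 679 and 1084 on their controls, a log2 difference of -1.50 (adjusted p = 0.0532 by limma, and 0.0453 with the block). With all probe sets of the gene averaged the difference was -1.20. Leaving out 1 array moved the adjusted p of Psma6 in Ccna2-MO embryos past 0.05 for Ccna2-MO 2 (0.0756) and for control 1 (0.0776), 2 (0.0614) or 3 (0.0843), as did a fit of only the 6 arrays of this experiment (0.154).

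Psma4, an alpha subunit, had the smallest p of its ring in Oct4-MO embryos. It was 311, 226 and 273 on the Oct4-MO arrays and 597, 410.3 and 388 on their controls, and 516, 447 and 457 on the Ccna2-MO arrays and 524, 561 and 597 on theirs. In both experiments every injected array lay under every control. The log2 differences were -0.74 (SE 0.21, adjusted p = 0.262 by limma) and -0.24 (SE 0.21, adjusted p = 0.677), neither of which passed. Of the other alpha subunits Psma2, Psma3, Psma5 and Psma7 had log2 differences of -0.43 to 0.10 in Oct4-MO embryos and -0.83 to -0.45 in Ccna2-MO embryos. Psma1 had means of 15.6 to 25.1 in the 4 groups, close to where differences cannot be measured. Its log2 differences, counted above as below 0, were -0.02 in Oct4-MO embryos and -0.005 in Ccna2-MO embryos. Psma8, the testis form, was 8.94, 10.7 and 3.84 on the Oct4-MO arrays, 4.49, 5.22 and 4.85 on their controls, 7.22, 5.47 and 4.21 on the Ccna2-MO arrays and 5.04, 3.36 and 6.64 on theirs, under 16 on every array.

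The 4 structural beta subunits had medians of -0.81 in Oct4-MO embryos and -0.19 in Ccna2-MO embryos. Psmb4 was 712, 339.7 and 378 on the Oct4-MO arrays and 882, 954 and 936 on their controls. No Oct4-MO array reached a control, and Oct4-MO 1 was the highest of them. The log2 difference was -1.01 (SE 0.29, adjusted p = 0.256 by limma). This probe set of Psmb4, like that of Psma6 used here, is one of those whose probes may match other sequences. In the Ccna2-MO experiment the same probe set was 981, 609 and 960.2 against 747, 930.4 and 1312, with overlap and a log2 difference of -0.22. A second probe set of Psmb4 gave 272, 176 and 399.7 against 679, 829 and 1021 in that experiment, with no overlap. It fell by 1.57 on the log2 scale (SE 0.30, adjusted p = 0.0388 by limma, and 0.0517 with the block). On the Oct4-MO arrays it was 308, 184 and 229 and on their controls 497, 390.5 and 588, without overlap (adjusted p = 0.289 by limma). Both probe sets of Psmb4 were thus under their controls on every Oct4-MO array. On the Ccna2-MO arrays only the second was, which is not of that kind. Of 97 probe sets of proteasome genes, 2 passed in Ccna2-MO embryos, this one and that of Psma6, where 0.748% of all 44937 did, and 0 in Oct4-MO embryos, where 0.0734% did.

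Psmb1, another structural beta subunit, was 74, 105 and 226 on the Ccna2-MO arrays and 340.1, 282 and 474 on their controls. Ccna2-MO 3 was the highest of its group and still under the lowest control. The log2 difference was -1.43 (SE 0.38, adjusted p = 0.107 by limma), and without Ccna2-MO 3 it passed (adjusted p = 0.0347). In Oct4-MO embryos it was 188, 84.8 and 119.8 against 237, 173 and 203, with overlap and a log2 difference of -0.64. Psmb2 was 230.2, 131 and 157 on the Oct4-MO arrays and 403, 255 and 415 on their controls, a difference of -0.99 with no overlap. On the Ccna2-MO arrays it was 216, 1123 and 407, so that its second array lay above all others. Psmb3 had differences of -0.02 and 0.18.

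Of the proteolytic subunits, Psmb7, which holds the trypsin-like site, was 684, 672 and 513 on the Oct4-MO arrays and 1128, 1099.8 and 765 on their controls. It was 677, 294 and 798 on the Ccna2-MO arrays and 901, 1121 and 1148 on theirs. Neither pair of groups overlapped. The log2 differences were -0.66 (SE 0.31, adjusted p = 0.554 by limma) and -0.93 (SE 0.31, adjusted p = 0.189). Without Ccna2-MO 2, the lowest array, the latter was -0.51. Psmb6, with the caspase-like site, was 158, 119 and 249 against 199, 135 and 183 for Oct4-MO and 177, 152 and 146 against 206, 149 and 241 for Ccna2-MO. Groups overlapped in both, with log2 differences of -0.02 (95% confidence interval -0.67 to 0.63) and -0.28 (-0.93 to 0.37).

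**Figure D3:**
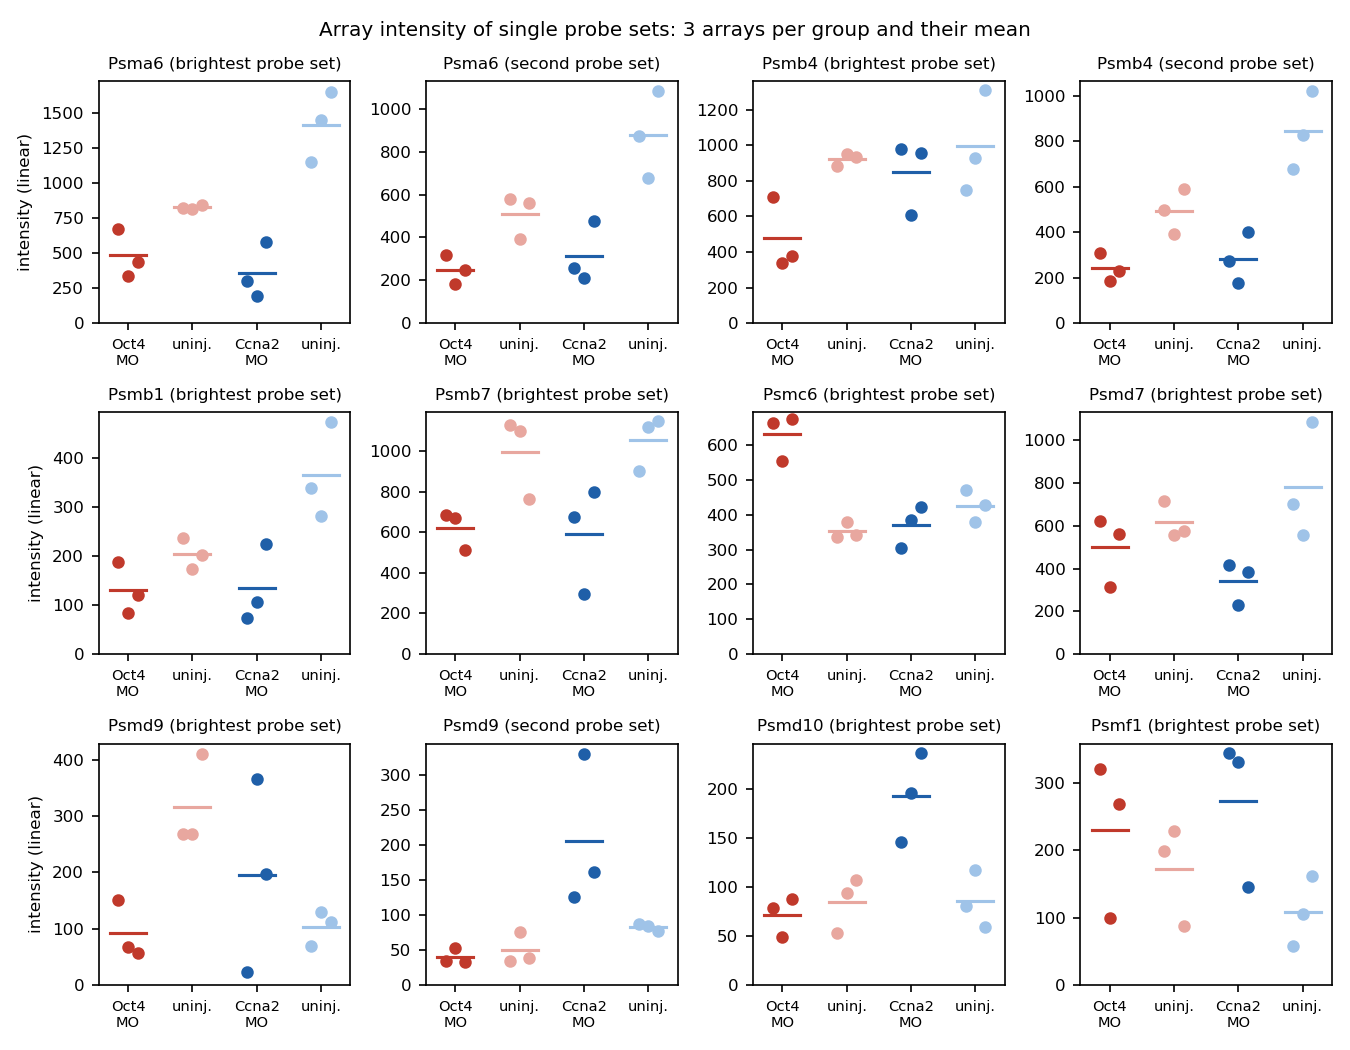
Intensity on each array (vertical axis, linear scale from 0, authors' values) for the probe sets of Psma6, Psmb4, Psmb1, Psmb7, Psmc6, Psmd7, Psmd9, Psmd10 and Psmf1 in the 4 groups (horizontal axis), with a point per array and a line at the group mean. In Ccna2-MO embryos both probe sets of Psma6 lie under all controls, and Psmc6 lies above all controls in Oct4-MO embryos.

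The core also has forms that immune cells and the thymus use. Psmb8, Psmb9 and Psmb10 replace the constitutive proteolytic subunits in the immunoproteasome, and Psmb11 is a proteolytic subunit used in the thymus. Psmb8 was 5.52, 4.58 and 2.59 on the Oct4-MO arrays, 1.85, 3.75 and 3.14 on their controls, 4.74, 8.36 and 11.6 on the Ccna2-MO arrays and 11, 9.33 and 6.01 on theirs, under 16 on every array. Psmb9 was 42.6, 17.1 and 42.4 on the Ccna2-MO arrays and 85.5, 96.8 and 45.1 on their controls, a log2 difference of -0.88 with no overlap (adjusted p = 0.255 by limma). In the Oct4-MO experiment it was 25, 38.5 and 52.4 against 39, 44.2 and 50, which overlapped. Psmb10 was 52.6, 87 and 67.4 on the Oct4-MO arrays, 64, 53.7 and 54.4 on their controls, 51.1, 69.4 and 103 on the Ccna2-MO arrays and 86.8, 93.8 and 80.5 on theirs, with log2 differences of 0.19 and -0.22. Psmb11 was 22.8, 45.9 and 11.9 on the Oct4-MO arrays and 7.04, 7.92 and 33 on their controls. The highest arrays, Oct4-MO 2 and control 3, stood apart in each group, and the groups overlapped, as they did for Psmb10. As a set these 4 had medians of 0.15 in Oct4-MO embryos and -0.13 in Ccna2-MO embryos.

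In the 19S regulator 13 of 16 genes lay below 0 in each comparison, with medians of -0.32 in Oct4-MO embryos and -0.43 in Ccna2-MO embryos. The 5 ATPases had medians of -0.55 and -0.40, the 3 other base subunits -0.11 and -0.36, and the 8 lid subunits -0.32 and -0.50. Psmc2, an ATPase, was 296, 154 and 289 on the Ccna2-MO arrays and 475, 367 and 542 on their controls, which did not overlap. On the Oct4-MO arrays it was 507, 162 and 201, and on their controls 587, 435 and 456, where Oct4-MO 1 reached the controls. The log2 differences were -0.90 and -0.89 (adjusted p = 0.307 and 0.501 by limma), and a second probe set of Psmc2 gave -1.10 and -1.03. The probe set of Psmc2 used here is also one of those whose probes may match other sequences, and the second is not. Psmc1 had differences of -0.55 and -0.49, Psmc3 of -0.45 and 0.06, and Psmc4 of -1.13 and -0.40, in Oct4-MO and Ccna2-MO embryos.

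Psmc6 was the ATPase with a log2 difference above 0 in Oct4-MO embryos, as Psmc3 was in Ccna2-MO embryos. Psmc6 was 663, 555 and 675 on the Oct4-MO arrays and 337, 379.9 and 342 on their controls. All Oct4-MO arrays lay above all controls. The log2 difference was 0.81 (SE 0.20) with the smallest p of the 45 genes in that comparison, 0.00133, and did not pass (adjusted p = 0.161 by limma). Its other 2 probe sets had means under 16 in every group and differences of 0.10 and 0.04, and with all 3 averaged the difference was 0.32. In the Ccna2-MO experiment it was 305, 384 and 421 against 472, 378 and 429, which overlapped, a difference of -0.20. The change in Ccna2-MO embryos minus that in Oct4-MO embryos was -1.01 (95% confidence interval -1.61 to -0.41, adjusted p = 0.599 by limma).

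In the base, Psmd1, a scaffold subunit that docks ubiquitin receptors, was 448, 449.9 and 267 on the Ccna2-MO arrays and 263, 252 and 179 on their controls. The Ccna2-MO arrays lay above the controls, Ccna2-MO 3 by the least. The log2 difference was 0.69 (adjusted p = 0.348 by limma), and in Oct4-MO embryos 0.38, with 233, 177 and 318 against 253, 155 and 143. Psmd2 and Psmd4, the latter a ubiquitin receptor, had differences of -0.11 and -0.15 in Oct4-MO embryos and -0.62 and -0.36 in Ccna2-MO embryos.

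In the lid, Psmd14, the enzyme that cuts ubiquitin chains off the substrate, was 774, 477 and 629 on the Oct4-MO arrays and 1288, 896 and 1249 on their controls. These did not overlap, with a log2 difference of -0.86 (SE 0.32, adjusted p = 0.407 by limma). On the Ccna2-MO arrays it was 668, 496 and 1385 against 1057, 934 and 1219.7, where Ccna2-MO 3 was above every control. Psmd7, the lid subunit that pairs with Psmd14, was 417, 229.9 and 382 on the Ccna2-MO arrays and 702, 557 and 1087 on their controls. These did not overlap either, with a difference of -1.14 (SE 0.32, adjusted p = 0.121 by limma), but the other probe sets of Psmd7 gave 0.57 and 0.14. In Oct4-MO embryos Psmd7 was 622, 313 and 562 against 718, 556 and 576, a difference of -0.34. Psmd3 was the lid subunit above 0 in both comparisons, at 0.47 and 0.83; its Ccna2-MO arrays, at 469, 398 and 391, lay above controls of 199, 239 and 251. Psmd6, Psmd8, Psmd11, Psmd12 and Psmd13 had differences of -0.63 to -0.19 in Oct4-MO embryos and -0.97 to -0.01 in Ccna2-MO embryos. The -0.01 was that of Psmd11, whose 6 probe sets in the brighter part of the array all lay below 0 in both comparisons. Others of these gave -0.48, -0.62, -0.68 and -1.08 in Ccna2-MO embryos. The probe set of Psmd13 used here is one of those whose probes may match other sequences.

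**Figure D4:**
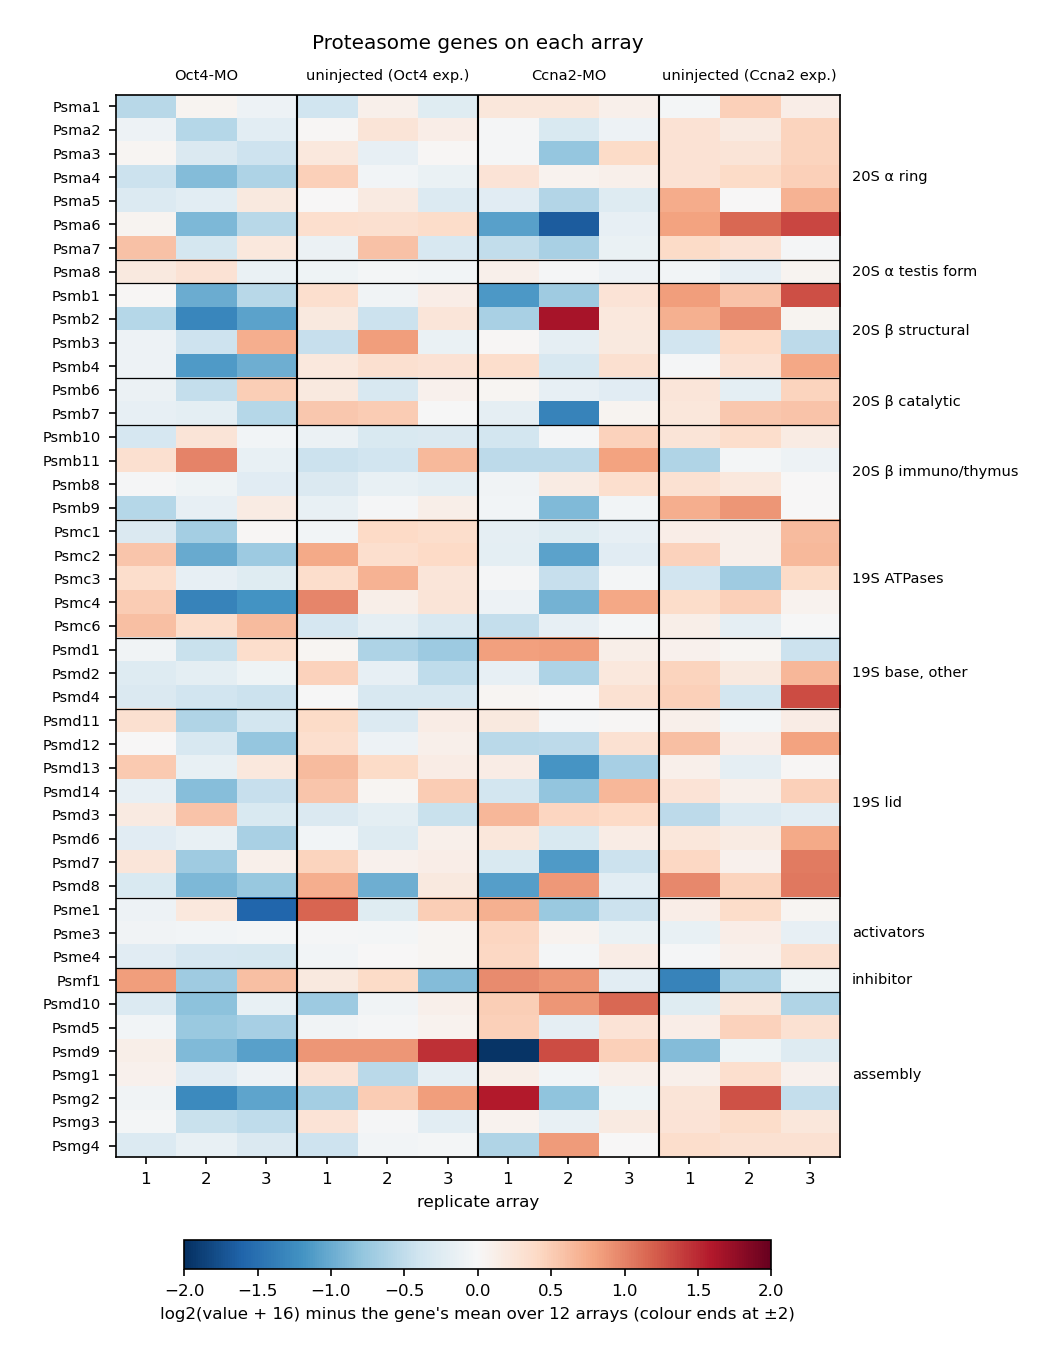
Log2 deviation of each proteasome gene from its mean over 12 arrays (colour, log2(value + 16) scale), with genes as rows by subcomplex and arrays as columns by group. Most rows of the core and the regulator are under their mean on Oct4-MO arrays 2 and 3 and above it on the controls of the Ccna2-MO experiment.

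The activators open the barrel without the 19S regulator. Psme3 was 3406, 3438 and 3461 on the Oct4-MO arrays and 3513, 3485 and 3661 on their controls, and 4816, 3749 and 3241 on the Ccna2-MO arrays and 3201, 3916 and 3170.5 on theirs. Its log2 differences were -0.05 (95% confidence interval -0.32 to 0.23) and 0.19 (-0.09 to 0.46). The Oct4-MO arrays lay under their controls by less than the spread over the Ccna2-MO arrays. Psme4, an activator known for its role in spermatogenesis, was 1557, 1447 and 1425 on the Oct4-MO arrays and 1748, 1843 and 1884 on their controls, a difference of -0.30 with no overlap (adjusted p = 0.512 by limma), and 0.04 in Ccna2-MO embryos. Psme1, a subunit of another activator, had log2 differences of -0.96 and -0.33.

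Psmf1, an inhibitor of the core, had log2 differences above 0 in both comparisons. It was 345, 331 and 146 on the Ccna2-MO arrays and 58.3, 106 and 161 on their controls. Ccna2-MO 3 was within the controls and the others above them. The log2 difference was 1.22 (SE 0.50, adjusted p = 0.294 by limma). A second probe set was 179, 403 and 249 against 147, 56.8 and 58.8, without overlap, a difference of 1.54 (adjusted p = 0.172 by limma). In Oct4-MO embryos the first was 321, 99.3 and 269 against 199.8, 228 and 87.5, with differences of 0.34 and, for the second, -0.32.

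Among assembly chaperones 6 of 7 lay below 0 in Oct4-MO embryos (median -0.35) and 5 of 7 in Ccna2-MO embryos (median -0.12). Psmd9, a chaperone of the base, was 150.3, 67.4 and 56.6 on the Oct4-MO arrays and 268, 268 and 409 on their controls. All Oct4-MO arrays lay under all controls, and the log2 difference of -1.70 (SE 0.66, adjusted p = 0.441 by limma) was the lowest of the 45 genes. Its second probe set gave -0.19 there, and in Ccna2-MO embryos the probe sets gave 0.34 and 1.06. Psmd10, a chaperone of the base also known as gankyrin, was 146, 196 and 237 on the Ccna2-MO arrays and 80.9, 118 and 59.4 on their controls. All Ccna2-MO arrays lay above all controls. The difference was 1.05 (SE 0.33, adjusted p = 0.169 by limma), and in Oct4-MO embryos -0.18, with 79, 49.1 and 87.9 against 53.6, 93.5 and 107. Psmd5, also a chaperone of the base, had log2 differences of -0.48 and -0.10. Psmg1 to Psmg4, which build the core, had differences of -1.01 to 0.06 in Oct4-MO embryos and -0.25 to -0.12 in Ccna2-MO embryos.

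The difference between the changes in both knockdowns was tested as an interaction. By limma 0 of 45 proteasome genes passed, as did 0% of all genes. At an unadjusted p under 0.05 there were 4 of 45, where 7.11% of all genes lay past it: Psma6 (-1.25, 95% confidence interval -2.29 to -0.22) and Psmc6 (-1.01) below 0, and Psmd9 (2.03, 0.02 to 4.04) and Psmd10 (1.23, 0.21 to 2.26) above 0. The controls of both experiments enter this interaction. Uninjected embryos of the Ccna2-MO experiment minus those of the Oct4-MO experiment differed by 0.75 for Psma6 and 0.26 for Psmc6. That log2 difference was -1.48 for Psmd9 and 0.02 for Psmd10. The median interaction over the 45 was -0.02.

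Probe sets of 1 gene did not always have 1 sign. Of 18 genes with over 1 probe set in the brighter part of the array, all of a gene's probe sets there had 1 sign for 11 in Oct4-MO embryos and for 15 in Ccna2-MO embryos. When all probe sets of a gene were averaged, the medians over the 45 genes were -0.17 and -0.23. Psmc3ip, a meiotic recombination factor, and Psme3ip1, a partner of Psme3, which share only the name pattern, had log2 differences of -0.49 and 0.29 in Oct4-MO embryos and -0.70 and -0.33 in Ccna2-MO embryos.

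Genes that work with the proteasome under other names were taken from a list of assembly factors, ubiquitin shuttles, p97 cofactors and transcription factors, of which 31 were measured. By limma 0 of 31 passed in either knockdown, where 0.0936% of all genes did in Oct4-MO embryos and 0.93% in Ccna2-MO embryos. At an unadjusted p under 0.05, 5 of 31 were lower and 0 higher in Oct4-MO embryos, where 5.96% and 4.66% of all genes were. In Ccna2-MO embryos 3 of 31 were lower and 2 higher, about the shares of all genes, 8.5% and 8.22%. The median log2 difference over the 31 was -0.21 in Oct4-MO embryos and -0.00 in Ccna2-MO embryos. Vcp, the p97 segregase that pulls ubiquitylated proteins from complexes, had means of 442 ± 74.7 with Oct4-MO and 815 ± 111 without, and 583 ± 242 and 883 ± 60.2 in the Ccna2-MO experiment (SD, n = 3 each). Its log2 differences were -0.86 and -0.68 (adjusted p = 0.324 and 0.297 by limma). Bag6, a chaperone of stray membrane proteins, and Faf1, a p97 cofactor, had log2 differences of -0.84 and -0.59 in Oct4-MO embryos. In the difference between the knockdowns the smallest p were those of Ecpas (0.76), Ube3c (1.56) and Ufd1 (1.62), and between the controls of both experiments those of Nfya (0.65), Rad23b (0.31) and Bag6 (0.91), none of which passed. Ecpas, which tethers the regulator to the core, had a log2 difference of 0.66 in Ccna2-MO embryos, Faf2, a p97 cofactor, one of -1.56 and Ngly1, which activates Nfe2l1, one of 0.85. Nfe2l1 itself was 1486 ± 287 and 1564 ± 66.4 in Oct4-MO embryos and their controls, and 1502 ± 214 and 1793 ± 413 in Ccna2-MO embryos and theirs (SD, n = 3 each). It is named for its known role at proteasome promoters, outside the rule for these genes, and its log2 differences were -0.09 and -0.24. The NF-Y genes Nfya, Nfyb and Nfyc had log2 differences of 0.22, -0.32 and -0.78 in Oct4-MO embryos. In Ccna2-MO embryos these were 0.23, -0.26 and -0.37. Nfyc lay under all controls in Oct4-MO embryos and did not pass (adjusted p = 0.536 by limma).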

How the data were processed

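RNA of pooled mid-2-cell embryos was hybridised to 12 Affymetrix mouse arrays. The authors normalized them with dChip and deposited 1 intensity per probe set on a linear scale; which options of the dChip model they chose was not given in the sources used here. Of 45001 probe sets 64 controls were left out, and 44937 were tested. By the platform annotation 34849 had 1 gene symbol, 928 several and 9160 none; the 47 matched symbols are unchanged in RefSeq. The brighter part of the array means the 22469 probe sets with the highest mean log2 values.

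The measure tested was log2(value + 16), with limma 3.58.1 in R 4.3.3: 4 group means in 1 fit over all 12 arrays, an intensity trend in the variance prior, and Benjamini-Hochberg adjustment over all probe sets tested at 0.05. Each gene's brightest probe set was used. Between 39.3 and 42.7% of the probe sets of each array had values under 16, so dim signals and the number of arrays limit the precision. Steps were tested on simulated data. The study's supplement counts 3 experiments for each knockdown on arrays, and p-values cover the spread between their pools.

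The description of each uninjected sample names the injected sample it was cultured beside, which has its number, so the numbers pair the samples; correlations of the deviations of paired arrays were 0.105, 0.0613 and -0.00016 for Oct4-MO and -0.0150, 0.111 and 0.150 for Ccna2-MO. The blocked fit is given where it changes a call.

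Members, gene lists and tests were chosen with earlier results of these data known. Values on every array are given for members that passed, for the member of each subcomplex with the smallest p per knockdown, and for the proteolytic subunits and their immune forms; others, such as Psmb2, Psmd3 and second probe sets, were chosen after their values were seen. Partner genes are named where they had 1 of the 3 smallest p, except Nfe2l1, Nfyb and Nfyc. Nfyb and Nfyc were added after their values were seen. Tried as alternatives were the block, controls from all 6 uninjected pools, fits of 6 arrays alone, a variance prior without the trend, a pseudocount of 1 or 64, testing the brighter part only, quantile normalization, median centring, array weights, averaged probe sets of a gene and leaving out each array.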

Additional observations from a re-analysis of the deposited data

How the results depend on the processing

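The median log2 difference over the proteasome genes kept its sign under all 23 alternatives in each knockdown. In Oct4-MO embryos it ran from -0.35 to -0.18 leaving out 1 array and from -0.40 to -0.17 otherwise, and in Ccna2-MO embryos from -0.31 to -0.19 and from -0.31 to -0.13. Quantile normalization and median centring moved the median of all genes by at most 0.07. The count of genes that passed was 0 in Oct4-MO embryos under every alternative. In Ccna2-MO embryos it was 1 with the pair as a block (replicate block), 0 with only the 6 arrays in the fit, and 0 to 2 leaving out 1 array: 0 without Ccna2-MO 2 or any 1 of the 3 controls, and 2 (Psma6 and Psmb1) without Ccna2-MO 3. The adjusted p of Psma6 ranged from 0.0098 to 0.154 over its alternatives, 5 of which ended its call. The block ended the call of Psmb4's second probe set (adjusted p 0.052) and made one for that of Psma6; it changed no other call of a proteasome gene.

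Over the 29 results of named genes, 662 alternative values were computed; 638 kept their direction and side of the threshold and 18 changed sign, all of differences that did not pass. With all 6 uninjected arrays as controls these were Psmb10 (-0.051 for Oct4-MO, 0.021 for Ccna2-MO) and Psmb8 (-0.097 and 0.16). With all probe sets of a gene averaged Psmb8 was -0.036 and 0.061. Psmb6 in Oct4-MO embryos was 0.022 with quantile normalization and 0.039 with median centring. Leaving out 1 array moved Psmb6 between -0.28 and 0.21, Psmb9 between -0.35 and 0.020 and Psmf1 between -0.043 and 0.82 in Oct4-MO embryos, and Psma8 between -0.015 and 0.10 and Psmb8 between -0.14 and 0.071 in Ccna2-MO embryos. Other differences moved by over 1.5 times without changing sign. With all probe sets of a gene averaged, Psma6 was -1.20, Psmb1 -0.70 and Psmd7 -0.15 in Ccna2-MO embryos, and Psmc6 0.32, Psmd9 -0.62 and Psme4 -0.11 in Oct4-MO embryos. With all 6 uninjected arrays Psmd9 was -0.96 in Oct4-MO embryos, and with 64 added Psmb9 was -0.50 in Ccna2-MO embryos. Leaving out 1 array moved Psmb7 in Ccna2-MO embryos between -1.20 and -0.51, and Psmb11 and Psmd1 in Oct4-MO embryos between 0.13 and 0.79 and between 0.18 and 0.61. The causes were not tested. Dim probe sets limit Psma1, Psma8, Psmb8, Psmb11 and Psmg4, whose differences are shrunk by the 16 added.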
